A study of Homo sapiens with 24 samples.

Results

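The nuclear receptor genes described here were 44 listed members of the superfamily, of 60641 gene symbols counted in every library. They were taken from a list of names, not by their values, and all 44 were found. Nuclear receptors are transcription factors, most of which hold a zinc finger domain that binds DNA and another domain that binds a small lipophilic ligand. Steroid receptors such as the glucocorticoid receptor bind DNA as homodimers, whereas the receptors for retinoic acid, thyroid hormone, vitamin D, fatty acids, oxysterols and bile acids pair with RXR on repeats of the core site AGGTCA. Orphan members such as the NR4A and COUP-TF receptors act without a classical hormone, and NR0B1 and NR0B2 lack the DNA-binding domain and repress other receptors.

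RNA-seq was performed on 24 libraries, in 8 groups of 3, of the human cell lines A549, derived from a lung adenocarcinoma, and HCT116, derived from a colorectal carcinoma. In the KO groups CRISPR/Cas9 had removed the DNA-binding domain (DBD, here a stretch of RNA predicted to bind DNA) of a noncoding transcript. WT, the unedited cells, was labelled WT B in A549 and, as separate groups, WT A and WT B in HCT116. A KO group in either cell line came from editing MSTRG.4401.1 and another from editing MSTRG.2513.6, while MSTRG.34636.7 was edited in HCT116 alone, with no other treatment labelled. WT A served as control of MSTRG.34636.7 KO, since both are numbered 1A to 3A, and for the remaining KO groups the control was WT B from the matching cell line. The labels do not say whether a KO was 1 clone or a pool of cells, nor whether the 3 libraries of a group came from separate cultures, so p-values measure only the spread between these libraries. The deleted transcripts themselves were not analysed here.

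In HCT116 MSTRG.2513.6 KO, as labelled, S8 and S9 stood apart. Across genes, the correlation of S8 and S9 with the A549 libraries was at least 0.971 and with the other HCT116 libraries at most 0.927, whereas S11 correlated at 0.972 or more with HCT116. Of the 20 nuclear receptor genes that differed between the wild-type cell lines, 19 in S8 and 18 in S9 were nearer to A549 WT B than to HCT116 WT B, and 0 in S11. The 3 libraries are called by their label below, and their results are given with and without S8 and S9.

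Total counts ranged from 25799359 to 102261808 per library, with the lowest 3, at 25799359 to 33205007, all from A549 MSTRG.4401.1 KO. Mitochondrially encoded genes took 6.10% ± 2.30 (SD, n = 3) of the counts there, against 2.12% ± 0.221 (SD, n = 3) in A549 WT B. Of 6 lung markers 4 were below 1 CPM (counts scaled to a common library total) in every A549 WT B library. The counts of markers below 1 CPM that follow use the same rule. The lung identity factor NKX2-1 was at 0.0882 CPM in A549 WT B. In HCT116 WT B 3 of the 6 lung markers were below 1 CPM and NKX2-1 was at 1.27 CPM. The lung markers summed to 3.4 to 4.84 CPM in A549 WT B and 4.89 to 5.22 CPM in HCT116 WT B. Of 6 intestinal markers 4 were below 1 CPM in HCT116 WT B, where CDX1 was at 0 and CDX2 at 18.9 CPM. In A549 WT B 2 of the 6 intestinal markers were, CDX1 and GPA33, both at 0. On average CDX2 was at 0.779, LGALS4 at 0.551 and CDH17 at 6.41 CPM there, and CDH17 was at 0.561 CPM in HCT116 WT B. The intestinal markers summed to 7.98 to 11.8 CPM in A549 WT B and 19.9 to 21.5 CPM in HCT116 WT B. All 4 general epithelial markers were above 1 CPM in both, with EPCAM at 2.68 CPM in A549 WT B versus 182 CPM in HCT116 WT B, CDH1 also at the lower mean in A549, and KRT8 at 2190 and KRT18 at 1820 CPM versus 1730 and 860 CPM. All 5 leukocyte markers were below 1 CPM in both WT B groups, with summed levels of at most 0.891 CPM, the 3 endothelial markers summed to at most 2.25 CPM, and of 5 fibroblast markers 4 were below 1 CPM, the other being COL1A1 at 29.6 and 29.1 CPM.

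Between 29 and 34 of the 44 nuclear receptor genes reached at least 1 CPM in every library of a group. RORB, a receptor of retina and brain, had no count in any library, and PGR, RXRG and NR2E1 were too low to be tested in any comparison. The summed level of all 44 genes was 1256 CPM ± 79.9 (SD, n = 3) in A549 WT B versus 1369 CPM ± 33.2 (SD, n = 3) in HCT116 WT B. Per kilobase of exon, the orphan receptor NR2F6, a repressor related to the COUP-TFs, was the highest of the 44 genes in both cell lines, with a level of 40.5 CPM per kb in A549 WT B versus 42.3 CPM per kb in HCT116 WT B. It was followed in A549 by NR3C1 at 29.5 and NR0B1 at 20 CPM per kb, and in HCT116 WT B by ESRRA at 29.3 and NR1D2 at 23.2 CPM per kb. In HCT116 WT A it was followed by NR1D1 at 27.5 and NR1D2 at 25.9, with ESRRA at 19.9 CPM per kb. The cell lines thus shared the first gene in this order and differed in those next to it.

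**Figure D1:**
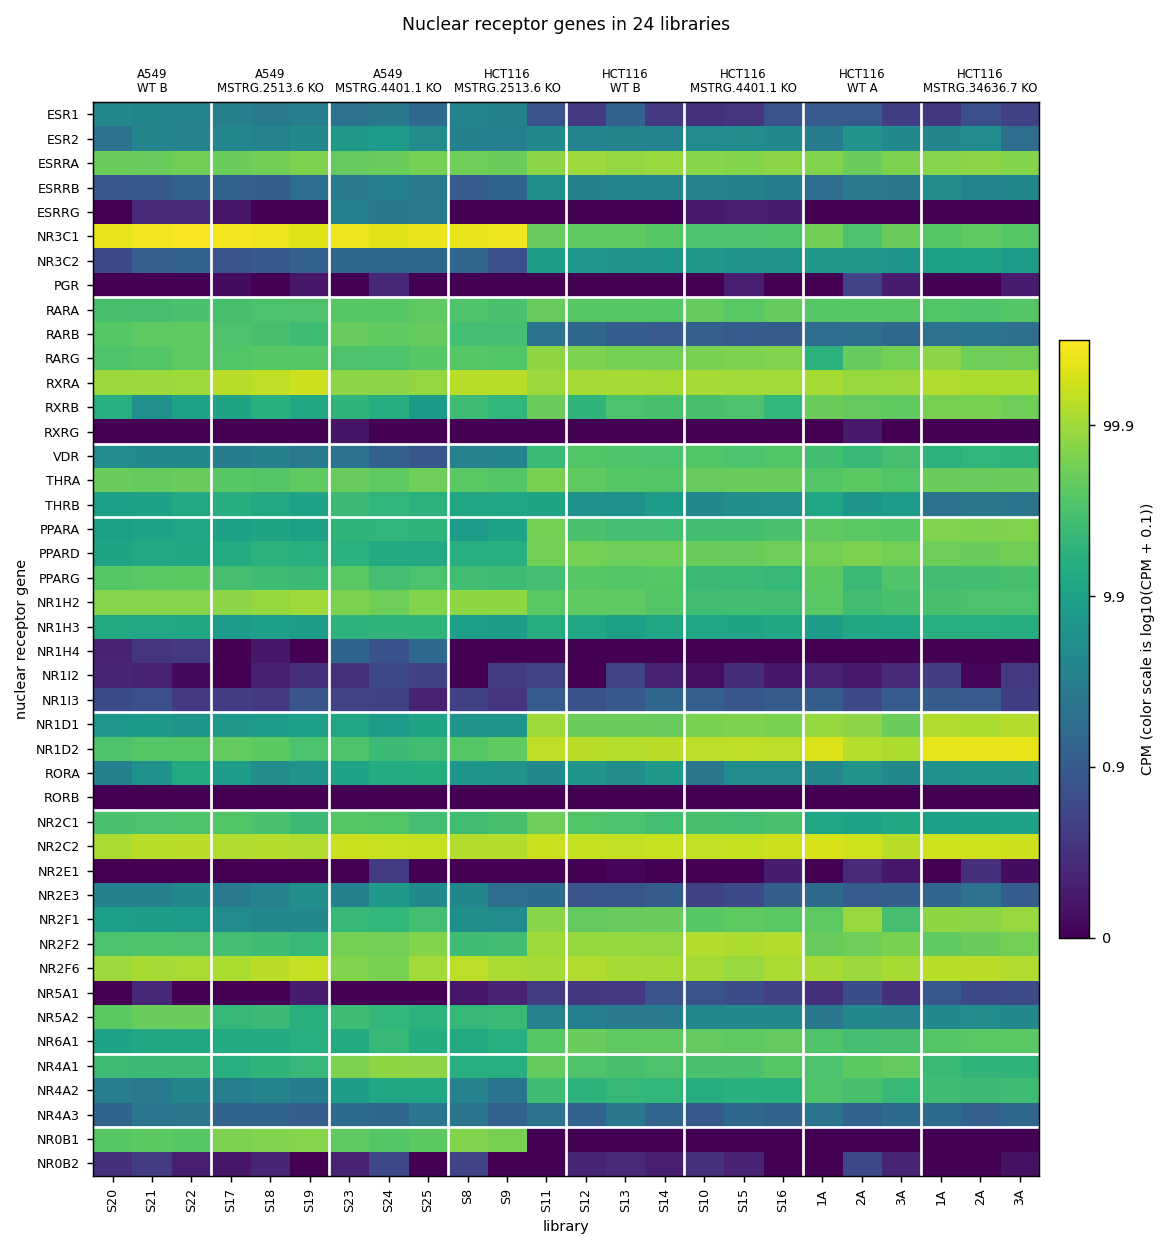
Level of each of the 44 nuclear receptor genes (rows, in 8 families) in each of the 24 libraries (columns, in 8 groups), with white lines between families and groups and color showing log10(CPM + 0.1). NR0B1 is at 0 in the other HCT116 libraries but at 60.5 and 68.0 CPM in S9 and S8, which carry an HCT116 label.

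The first question was how far the receptor set differs between the cell lines into which the KOs were made. Wild-type A549 and HCT116 differed in the levels of many receptors. A549 WT B had the higher levels of the glucocorticoid receptor NR3C1, the retinoic acid receptor RARB, NR5A2 and NR0B1, and HCT116 WT B those of the vitamin D receptor VDR, the mineralocorticoid receptor NR3C2, the REV-ERB gene NR1D1 and NR4A2. The call required FDR < 0.1 and |log2(fold change)| > 1 in the quasi-likelihood test of edgeR, with Benjamini-Hochberg adjusted p-values. By this rule 20 of the 37 nuclear receptor genes tested differed, 7 higher and 13 lower in A549. Of all 27882 genes tested 35.7% were called, 17.2% as higher and 18.5% as lower. The median |log2(fold change)| was 1.10 over the nuclear receptor genes and 0.72 over all genes. In such bulk RNA, fewer cells that express a gene and less RNA per cell cannot be told apart.

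NR0B1 (DAX1), a corepressor that lacks the DNA-binding domain, lies at 30304206 to 30309390 of chromosome X on the minus strand (GRCh38, GENCODE). It was at 38.4, 41.8 and 39.3 CPM in the A549 WT B libraries and had no count in any HCT116 WT B library. Against a floor of 3 counts in each library it was at least 776-fold higher in A549 (adjusted p = 5.25e-07, quasi-likelihood test of edgeR). The HCT116 libraries WT A, MSTRG.4401.1 KO, MSTRG.34636.7 KO and S11 also had no NR0B1 count.

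RARB, a receptor for all-trans retinoic acid, was at 37.3, 42.7 and 44.6 CPM in A549 WT B and at 1.37, 1.01 and 0.898 CPM in HCT116 WT B. The log2(fold change) was 5.51 ± 0.162 (SE, adjusted p = 2.55e-07, quasi-likelihood test of edgeR). NR5A2 (LRH-1), an orphan receptor of liver, pancreas and gut, was at 41.9, 50.2 and 52.3 CPM in A549 WT B and at 3.13, 2.71 and 2.65 CPM in HCT116 WT B. Its log2(fold change) was 4.35 ± 0.101 (SE, adjusted p = 1.08e-07, quasi-likelihood test of edgeR). All A549 WT B libraries were thus above all HCT116 WT B libraries for both genes.

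Promoter windows of these 3 genes are shown because they had the largest differences in favor of A549. The windows are the 250 bases before a start site in RefSeq (GRCh38.p14), which lists 1 window for NR0B1, 4 for RARB and 2 for NR5A2, and the window shown is the one that holds AGGTCA. That of NR0B1 spans chrX:30309391-30309640 on the minus strand, that of RARB chr3:25340552-25340801 and that of NR5A2 chr1:200027460-200027709, both on the plus strand. Capitals mark AGGTCA, which begins 143, 52 and 84 bases before the start site, respectively.
NR0B1: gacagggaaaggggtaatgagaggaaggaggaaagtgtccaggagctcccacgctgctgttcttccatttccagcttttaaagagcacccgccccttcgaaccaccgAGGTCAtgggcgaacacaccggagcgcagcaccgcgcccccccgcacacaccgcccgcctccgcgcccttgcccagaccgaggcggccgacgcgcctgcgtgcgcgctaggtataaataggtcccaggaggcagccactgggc
RARB: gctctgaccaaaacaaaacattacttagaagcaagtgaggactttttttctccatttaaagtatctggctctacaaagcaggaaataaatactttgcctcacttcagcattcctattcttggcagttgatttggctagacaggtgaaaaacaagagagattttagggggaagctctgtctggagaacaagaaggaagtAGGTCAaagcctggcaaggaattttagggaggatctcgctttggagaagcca
NR5A2: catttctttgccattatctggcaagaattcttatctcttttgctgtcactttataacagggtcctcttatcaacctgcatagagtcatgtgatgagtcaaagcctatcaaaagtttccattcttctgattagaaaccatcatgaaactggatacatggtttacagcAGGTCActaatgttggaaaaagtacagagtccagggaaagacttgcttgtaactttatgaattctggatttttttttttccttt

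AGGTCA, searched on both strands, was present in 12.1% of all 35116 windows and in 15 of the 94 windows of nuclear receptor genes. These 15 windows belonged to 11 of the 40 genes with an entry, among them PPARG, ESRRG, NR1H4 and RARA. These matches describe the letters of the windows only. VDR, NR2F6, NR4A2 and NR0B2 had no entry.

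Steroid receptors differed in both directions. NR3C1, which mediates the response to cortisol, was at 239, 277 and 295 CPM in A549 WT B and at 43.6, 43.0 and 38.0 CPM in HCT116 WT B, with a log2(fold change) of 2.96 ± 0.0783 (SE, adjusted p = 1.71e-07, quasi-likelihood test of edgeR). Among 8 tested glucocorticoid receptor targets, 2 were higher in A549, DUSP1 (5.39) and SGK1 (3.76), and 3 were lower, CDKN1C (-3.40), PER1 (-1.97) and FKBP5 (-1.58, each a log2(fold change)). The estrogen receptor gene ESR1 was at 4.33, 3.97 and 3.58 CPM in A549 WT B and at 0.286, 1.17 and 0.299 CPM in HCT116 WT B, with a log2(fold change) of 3.00 ± 0.549 (SE, adjusted p = 0.00244, quasi-likelihood test of edgeR). ESR1 was low in both cell lines, and 1 of the HCT116 libraries was well above the other two. NR3C2, the aldosterone receptor, was at 0.476, 1.08 and 1.20 CPM in A549 WT B and at 7.25, 6.41 and 6.70 CPM in HCT116 WT B (log2(fold change) = -2.65 ± 0.299, SE, adjusted p = 0.000194, quasi-likelihood test of edgeR).

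VDR was at 4.74, 4.52 and 4.55 CPM in A549 WT B and at 35.6, 34.5 and 31.9 CPM in HCT116 WT B, a log2(fold change) of -2.62 ± 0.106 (SE, adjusted p = 1.09e-06, quasi-likelihood test of edgeR). Genes of vitamin D metabolism did not follow a single direction. CYP24A1, which degrades the active vitamin, was higher in A549 (log2(fold change) = 4.73), whereas CYP27B1, which makes it, and the calcium channel gene TRPV6 were lower (-2.88 and -4.54). NR1D1 (REV-ERB alpha), a repressor in the circadian clock, was at 7.22, 8.02 and 6.98 CPM in A549 WT B and at 52.1, 51.3 and 48.8 CPM in HCT116 WT B. The log2(fold change) of NR1D1 was -2.51 ± 0.0957 (SE, adjusted p = 8.3e-07, quasi-likelihood test of edgeR), and NR1D1 overlaps THRA on the opposite strand. Of 15 clock genes tested, 6 were lower in A549, among them TEF (-3.01), BHLHE41 (-3.71) and CLOCK (-1.91), and 2 were higher, NPAS2 (2.42) and BHLHE40 (1.42, each a log2(fold change)).

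NR4A2 (NURR1), an immediate early gene, was at 3.02, 2.62 and 3.85 CPM in A549 WT B and at 18.5, 21.3 and 20.4 CPM in HCT116 WT B, with a log2(fold change) of -2.41 ± 0.157 (SE, adjusted p = 1.09e-05, quasi-likelihood test of edgeR). NR5A1 (SF-1), a regulator of steroid synthesis, was at 0, 0.151 and 0 CPM in A549 WT B and at 0.267, 0.281 and 0.749 CPM in HCT116 WT B, that is 0 to 9 against 14 to 45 counts. Its log2(fold change) of -2.69 ± 1.08 (SE, adjusted p = 0.0692, quasi-likelihood test of edgeR) was no longer called without A549 WT B 1B (-2.10) or 3B (-2.19), or without HCT116 WT B 2B (-2.93) or 3B (-2.06). The other genes called were higher in A549 for NR2E3 and NR1H2, and lower for NR2F1, PPARD, NR6A1, ESRRB, NR1D2, PPARA, NR2F2 and RXRB, with log2(fold change) from -2.15 to 2.38. Levels differed by less for RXRA, the common heterodimer partner, at 96.4 CPM ± 4 in A549 WT B versus 109 CPM ± 1.92 in HCT116 WT B (SD, n = 3).

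**Figure D2:**
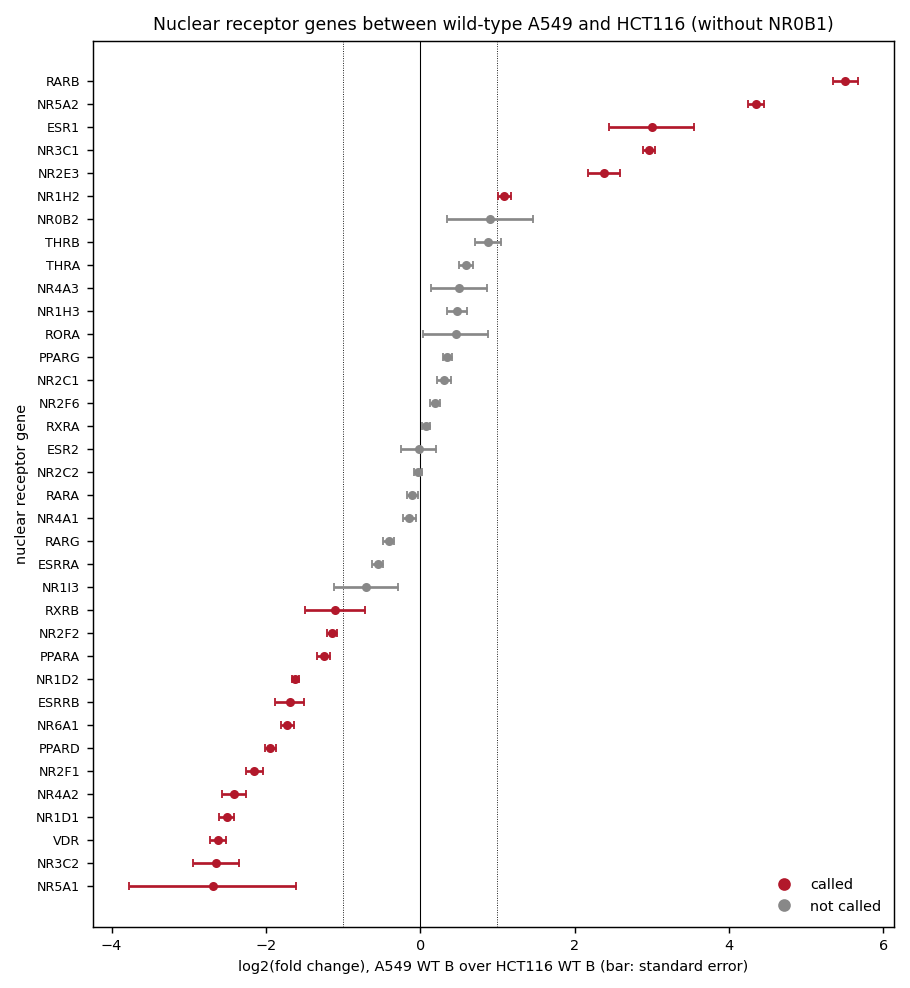
log2(fold change) of A549 WT B over HCT116 WT B with its standard error for the tested nuclear receptor genes other than NR0B1, which had no count in HCT116. Red points are called; RARB at 5.51 and NR5A2 at 4.35 stand highest, and NR5A1 at -2.69 has the widest error.

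Genes of retinoid metabolism differed with the retinoid receptors, in both directions. Of 11 tested, 4 were higher in A549, where ALDH1A1, which oxidizes retinal, was at 6170 CPM ± 211 against 0.0208 CPM ± 0.036 in HCT116, and STRA6, the receptor for the retinol carrier, at 90.9 CPM ± 13.1 against 0.0519 CPM ± 0.09 (SD, n = 3). The other 4 called were lower, among them CRABP2, which carries retinoic acid in the cell, at 1.60 CPM against 81.0. HCT116 had ALDH1A3 at 126 CPM, and A549 had it at 6.03 CPM. Of the 23 coregulator genes, 7 were higher in A549, among them the corepressor gene NCOR1 (1.30), and the coactivator gene PPARGC1B was lower (-1.42, each a log2(fold change)). Of the remaining lists, the tested genes higher and lower in A549 numbered 1 and 1 of 6 LXR targets, 1 and 0 of 6 PPAR targets, 2 and 2 of 7 xenobiotic and bile acid receptor targets, and 1 and 2 of 4 estrogen receptor targets.

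The next comparisons asked which receptors differed once a DBD had been removed. In A549 MSTRG.2513.6 KO few did. NR5A2 and the COUP-TF gene NR2F1 were called, both lower in KO, which is 2 of the 35 nuclear receptor genes tested. Of all 25666 genes 2.92% were called, 1.13% as higher and 1.79% as lower. The general epithelial markers summed to 2720 to 3480 CPM in KO and 3890 to 4260 CPM in WT B, and the fibroblast markers to 8.01 to 15.2 CPM and 25.9 to 36.4 CPM, and their part in the values was not tested. NR5A2 was at 21.1, 24.4 and 16.5 CPM in KO and at 41.9, 50.2 and 52.3 CPM in WT B, so that all KO libraries were below all WT libraries, with a log2(fold change) of -1.21 ± 0.168 (SE, adjusted p = 0.00928, quasi-likelihood test of edgeR). NR2F1 (COUP-TF1), at 93583222 to 93594611 of chromosome 5 on the plus strand, was at 4.93, 4.04 and 4.47 CPM in KO and at 9.43, 9.01 and 8.44 CPM in WT B. Its log2(fold change) of -1 ± 0.170 (SE, adjusted p = 0.0201, quasi-likelihood test of edgeR) lay at the threshold, and was no longer called without KO S18 (-0.94), KO S19 (-0.97) or WT B 1B (-0.90). The call was also lost with DESeq2 (-0.99), upper-quartile normalization (-0.97) and no filter (-0.98). NR2F1-AS1, an antisense gene that overlaps NR2F1, was at 8.58 to 9.5 CPM in KO and 12.2 to 16.3 CPM in WT B. NR0B1 (0.79), RXRA (0.64) and PPARG (-0.60, each a log2(fold change)) were below an FDR of 0.1 but under the fold-change threshold. NR0B1 was at 65.3, 67.8 and 73.8 CPM in these KO libraries, and WT B reached no higher than 41.8 CPM.

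Among the 90 companion genes (coregulators, target genes and clock genes), 80 were tested, and 3 were higher and 3 lower in A549 MSTRG.2513.6 KO. PPARGC1A (PGC-1 alpha), a coactivator of PPAR and ERR receptors, had no count in any KO library and was at 1.62 CPM ± 0.114 (SD, n = 3) in WT B, which is at least 29.8-fold lower against 3 counts in each KO library. PDK4, a PPAR target that restrains pyruvate oxidation, was at 1.26 CPM ± 0.092 in KO and 12.6 CPM ± 2.81 in WT B (SD, n = 3). ABCG1, a cholesterol transporter gene under LXR, was in contrast higher, at 21.1 CPM ± 3.03 in KO and 5.62 CPM ± 0.646 in WT B (SD, n = 3). The other called genes were ALDH1A2 (2.17), CIART (1.77) and UGT1A1 (-1.96, each a log2(fold change)), where UGT1A1 shares exons with its neighbors in the UGT1A cluster, and none of the 8 glucocorticoid receptor targets, 3 vitamin D genes and 4 estrogen receptor targets tested was called.

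In A549 MSTRG.4401.1 KO, receptors of several families differed from WT B. The immediate early genes NR4A1 and NR4A2, the estrogen-related receptors ESRRB and ESRRG, ESR2, NR1H4 and NR2F1 were higher in KO, and ESR1, VDR and NR5A2 were lower. These are 10 of the 37 nuclear receptor genes tested, 7 higher and 3 lower. Of all 24979 genes 15.4% were called, 11.1% as higher and 4.32% as lower. The median log2(fold change) was 0.24 over the nuclear receptor genes and 0.12 over all genes, and upper-quartile normalization moved the latter to 0.283. Of the called genes 71.9% were higher in KO, and 83.1% were with upper-quartile normalization, under which 9 nuclear receptor genes were higher and 2 lower. With that normalization 18.7% of all 24979 genes were called, 3872 as higher and 789 as lower. The 4 general epithelial markers summed to 6420 to 8440 CPM in these KO libraries and 3890 to 4260 CPM in WT B. These levels, the lower depth and the larger mitochondrial share of the KO libraries move with every value of this comparison, and their part in it was not tested.

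NR4A1 (NUR77), at 52022832 to 52059507 of chromosome 12 on the plus strand, was at 66.7, 81.2 and 76.6 CPM in KO and at 24.8, 24.2 and 24.5 CPM in WT B. Its log2(fold change) was 1.53 ± 0.122 (SE, adjusted p = 0.00014, quasi-likelihood test of edgeR). NR4A2 was at 8.67, 12 and 12 CPM in KO and at 3.02, 2.62 and 3.85 CPM in WT B, with a log2(fold change) of 1.71 ± 0.222 (SE, adjusted p = 0.00136, quasi-likelihood test of edgeR). Both genes were higher in every KO library, and the third NR4A gene, NR4A3, was at 1.72 CPM in KO and 1.94 CPM in WT B. NR2F1 was at 21.9, 20.4 and 28.1 CPM in KO and at 9.43, 9.01 and 8.44 CPM in WT B, with a log2(fold change) of 1.31 ± 0.180 (SE, adjusted p = 0.00179, quasi-likelihood test of edgeR). The antisense gene NR2F1-AS1 overlaps NR2F1, and it was at 27.7 to 49.3 CPM in KO and 12.2 to 16.3 CPM in WT B. Whether the counting used the strand is not given in the sources used here, so it is not known whether reads of the 2 genes were kept apart.

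ESRRG, an orphan receptor of energy metabolism, was near its floor in WT B, with 0, 10 and 7 counts, and had 105, 65 and 70 counts in KO, or 3.16, 2.52 and 2.67 CPM. The log2(fold change) was 4.57 ± 0.675 (SE, adjusted p = 0.00237, quasi-likelihood test of edgeR). ESRRB was at 2.68, 3.10 and 2.78 CPM in KO and at 0.798, 0.858 and 1.11 CPM in WT B, with a log2(fold change) of 1.56 ± 0.253 (SE, adjusted p = 0.00328, quasi-likelihood test of edgeR). ESRRA, the most abundant ERR gene, was at 51 CPM in KO and 51.8 CPM in WT B. The estrogen receptor genes ESR2 and ESR1 moved in opposite directions. ESR2 was at 7.80, 8.53 and 5.11 CPM in KO and 2.06, 3.87 and 3.42 CPM in WT B (log2(fold change) = 1.12 ± 0.273, SE, adjusted p = 0.0157, quasi-likelihood test of edgeR), and ESR1 was at 2.02, 2.48 and 1.45 CPM in KO and 4.33, 3.97 and 3.58 CPM in WT B (log2(fold change) = -1.09 ± 0.255, SE, adjusted p = 0.0136, same test). Neither call held against leaving out WT B 1B (0.91 and -0.99), nor did that of ESR2 without KO S24 (0.97) and that of ESR1 without KO S25 (-0.95). The call of ESR1 was also lost with upper-quartile normalization (-0.92). SYNE2 overlaps ESR2 and SYNE1 overlaps ESR1 on the opposite strand, and whether their reads were kept apart is not known.

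VDR was at 2.14, 1.16 and 0.762 CPM in KO and at 4.74, 4.52 and 4.55 CPM in WT B, a log2(fold change) of -1.84 ± 0.336 (SE, adjusted p = 0.00517, quasi-likelihood test of edgeR). NR1H4 (FXR), the bile acid receptor, rose from 7, 14 and 12 counts in WT B to 41, 17 and 38 counts in KO, or from 0.119, 0.235 and 0.289 CPM to 1.24, 0.659 and 1.45 CPM. Its log2(fold change) was 2.32 ± 0.492 (SE, adjusted p = 0.00931, quasi-likelihood test of edgeR), at a level that was low in both groups. NR5A2 was at 25.7, 20.4 and 18.1 CPM in KO and at 41.9, 50.2 and 52.3 CPM in WT B, with a log2(fold change) of -1.25 ± 0.132 (SE, adjusted p = 0.000562, quasi-likelihood test of edgeR). At FDR < 0.1 alone, without the fold-change threshold, 21 of the 37 genes were called, 14 higher and 7 lower, and 43.7% of all genes were. The largest of these 11 further changes were those of THRB (0.88), PPARA (0.84) and NR2F2 (0.82, each a log2(fold change)). NR2F2 overlaps the antisense gene NR2F2-AS1, which was at 20.5 to 25.5 CPM in KO and 3.39 to 4.37 CPM in WT B. Whether reads of NR2F2 and NR2F2-AS1 were kept apart is not known either.

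**Figure D3:**
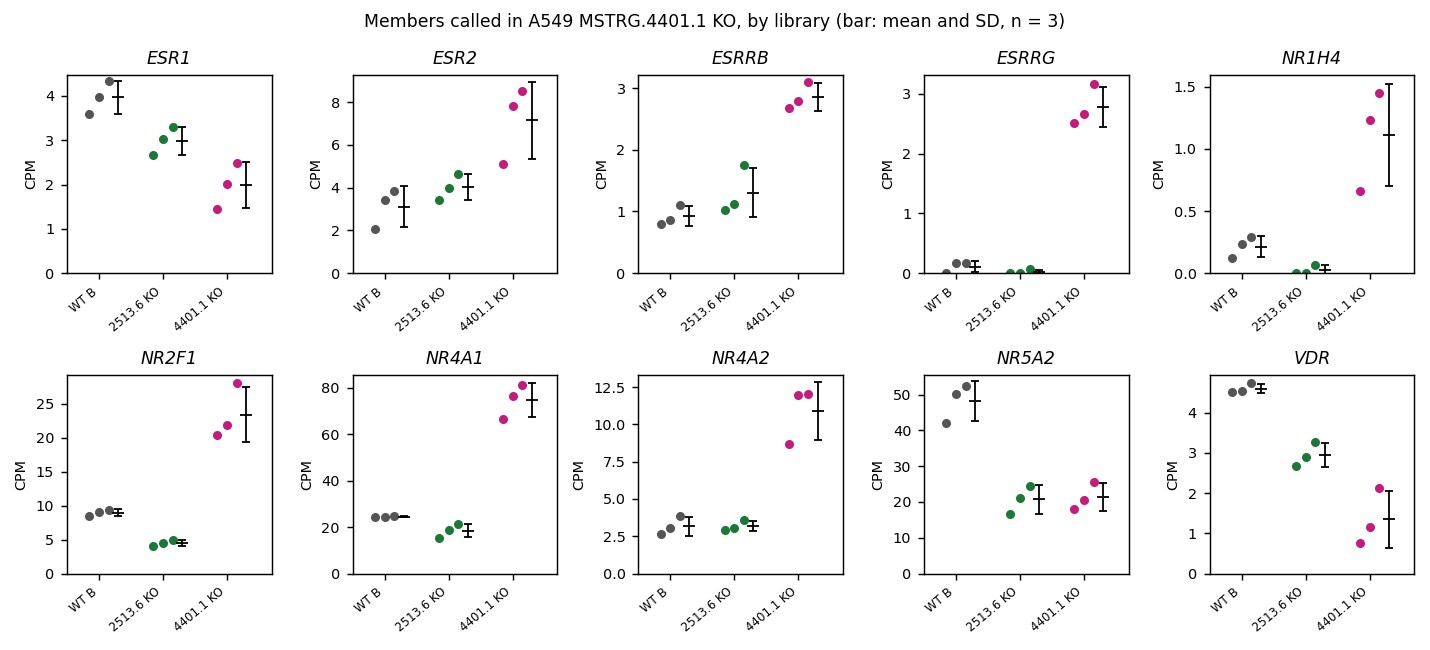
Level (CPM, axis from 0) of the 10 nuclear receptor genes called in A549 MSTRG.4401.1 KO, 1 point per library, with mean and SD (n = 3) beside the points, in MSTRG.4401.1 KO, WT B and MSTRG.2513.6 KO. NR5A2 lies below WT B in both KOs, and NR2F1 lies below it in 1 KO and above it in the other.

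Of the companion genes, 8 were higher and 6 lower among 76 tested in A549 MSTRG.4401.1 KO. PPARGC1A was at 14 CPM ± 3.00 in KO and 1.62 CPM ± 0.114 in WT B (SD, n = 3), and PDK4 at 71.2 CPM ± 14.5 against 12.6 CPM ± 2.81. Both genes were thus higher here and lower in A549 MSTRG.2513.6 KO. ABCA1, the cholesterol exporter under LXR, was at 3.60 CPM ± 0.358 in KO and 80.1 CPM ± 9.82 in WT B (SD, n = 3), a log2(fold change) of -4.55 ± 0.141 (SE, adjusted p = 1.38e-06, quasi-likelihood test of edgeR). Of the retinoid list, CYP26B1 (1.41) and ALDH1A2 (2.74) were higher and CYP26A1 (-1.75) and TGM2 (-1.17) lower. NSD1 (-1.29), PLIN2 (-1.11) and the estrogen receptor target TFF1 (-2.64) were lower, and CYP3A4 (2.15), UGT1A1 (1.19), HLF (1.62) and PER2 (1.07) were higher, each as log2(fold change). None of the 8 glucocorticoid receptor targets and 2 vitamin D genes tested was called.

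The A549 KOs share the WT B libraries, so they were also compared with each other. MSTRG.4401.1 KO had the higher levels of ESRRG (log2(fold change) = 6.58), NR1H4 (5.26), NR2F1 (2.25), NR4A1 (1.89), NR4A2 (1.64) and NR2F2 (1.15), and the lower levels of VDR (-1.26) and RXRA (-1.04). These 8 of 37 nuclear receptor genes were called beside 16.6% of all 25161 genes, 10.9% as higher and 5.75% as lower. ESRRG and NR1H4 each had 0 to 4 counts in MSTRG.2513.6 KO, so the sizes of their values rest on a group at the floor. NR2F2-AS1, which overlaps NR2F2, was at 20.5 to 25.5 CPM in MSTRG.4401.1 KO and 0.516 to 0.804 CPM in MSTRG.2513.6 KO. RXRA was at 76.8, 78.0 and 86.6 CPM in MSTRG.4401.1 KO and 133, 145 and 173 CPM in MSTRG.2513.6 KO, with WT B between them at 92.9 to 101 CPM. NR5A2 was not called, at 21.4 CPM ± 3.87 in MSTRG.4401.1 KO and 20.7 CPM ± 3.96 in MSTRG.2513.6 KO (SD, n = 3).

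In HCT116 MSTRG.4401.1 KO the receptor levels stayed within the fold-change threshold. None of the 35 nuclear receptor genes tested was called by edgeR's quasi-likelihood test, DESeq2 called 0 as well, and 15 had an unadjusted p below 0.05. Of all 26615 genes 2.62% were called, or 2.34% by DESeq2, and 6836 had an unadjusted p below 0.05. The 4 general epithelial markers summed to 1540 to 1660 CPM in these KO libraries and 2770 to 2950 CPM in WT B, and their part in the values was not tested. At FDR < 0.1 alone 10 were called, 4 higher and 6 lower, beside 16.3% of all genes. The lipid receptor gene PPARG was at 24.1, 23.4 and 21.1 CPM in KO and 39.2, 36.2 and 38.1 CPM in WT B, with a log2(fold change) of -0.74 ± 0.0766 (SE, adjusted p = 0.00122, quasi-likelihood test of edgeR), and NR1H2, an oxysterol receptor, fell by 0.62 on the log2 scale. NR2F2 (COUP-TF2) was at 125, 119 and 124 CPM in KO and at 88.5, 88.2 and 85.1 CPM in WT B, with a log2(fold change) of 0.48 ± 0.0448 (SE, adjusted p = 0.000784, quasi-likelihood test of edgeR). The other 7 were NR5A2 (0.62), THRA (0.34) and NR1D1 (0.31), which were higher, and NR4A2 (-0.34), NR3C1 (-0.33), ESRRA (-0.28) and NR2F1 (-0.25), which were lower. When WT A was the control instead, where 10.2% of all genes were called, NR2C1 (1.36) and NR2F2 (1.16, each a log2(fold change)) were called. NR2F2-AS1, whose reads may not have been kept apart from those of NR2F2, was at 13.1 to 18.3 CPM in KO. It was at 9.47 to 11.2 CPM in WT B and 11 to 25.1 CPM in WT A.

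Of the companion genes, 2 were higher and 2 lower among 74 tested in HCT116 MSTRG.4401.1 KO. ANGPTL4, a lipase inhibitor in both the PPAR and the glucocorticoid receptor target lists, was at 7.67 CPM ± 0.656 in KO and 26.1 CPM ± 0.970 in WT B (SD, n = 3). The vitamin D-degrading gene CYP24A1 was at 47.4 CPM ± 6.48 in KO and 17.7 CPM ± 5.91 in WT B (SD, n = 3), while VDR itself was at 34.2 CPM and 34.0 CPM. CYP26A1 (1.30) and ALDH1A2 (-1.58, each a log2(fold change)) of the retinoid list were also called, both below 1 CPM on average in these groups.

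The same DBD was removed in both cell lines, so the effects of MSTRG.4401.1 KO could be compared by an interaction term over 12 libraries. The effects differed at FDR < 0.1 for 11 of the 40 nuclear receptor genes tested, beside 26.9% of all 30134 genes. The effect was more positive in A549 for NR4A1, NR4A2, NR2F1, ESRRB, PPARA and THRB and more negative for NR5A2, VDR, NR1D2, THRA and RXRA. NR5A2 had a log2(fold change) of -1.25 in A549 and 0.62 in HCT116, a difference of -1.90 ± 0.173 (SE, adjusted p = 2.99e-05, quasi-likelihood test of edgeR). NR4A1 had 1.53 in A549 and 0.05 in HCT116, where it was at 31.2, 31.4 and 39.0 CPM in KO and 33.9, 30.2 and 33.2 CPM in WT B. VDR had -1.84 in A549 and -0.00 in HCT116. With upper-quartile normalization 19 genes differed, 15 more positive and 4 more negative in A549, beside 27.8% of all genes, and the call of RXRA was kept under 5 of 18 alternatives. The epithelial markers moved in opposite directions, higher in the A549 KO and lower in the HCT116 KO than in WT B. The A549 side of this comparison rests on the KO libraries with the lower depth and larger mitochondrial share given above, and the part of these values in it was not tested.

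**Figure D4:**
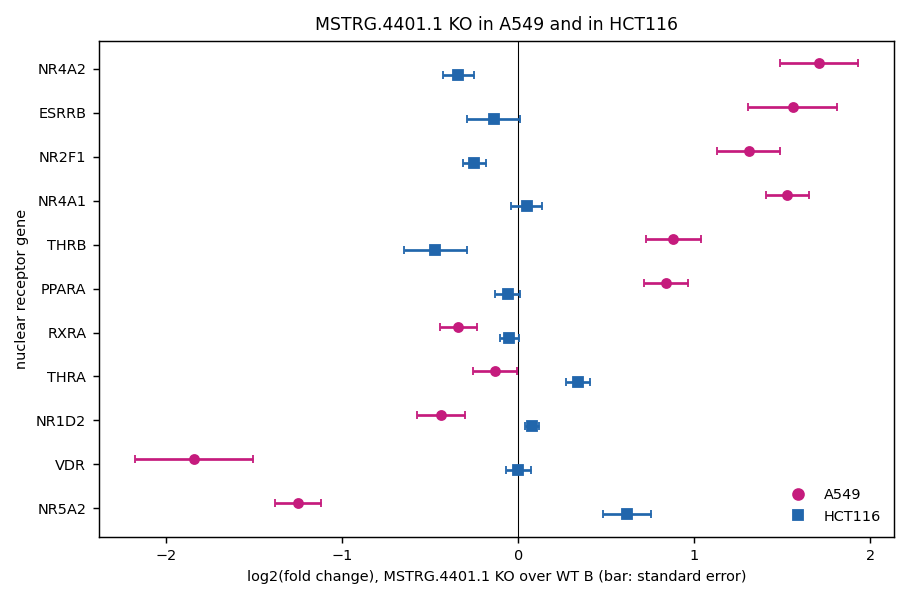
log2(fold change) of MSTRG.4401.1 KO over WT B with its standard error, in A549 (circles) and HCT116 (squares), for the 11 nuclear receptor genes whose effects differed in the interaction test. NR4A2 at 1.71 and -0.34 and NR5A2 at -1.25 and 0.62 lie on opposite sides of 0, and RXRA at -0.34 and -0.05 has the smallest gap.

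In HCT116 MSTRG.34636.7 KO, compared with WT A, the thyroid hormone receptor gene THRB was lower. It was at 2.11, 2.35 and 2.19 CPM in KO and 11.4, 6.99 and 8.25 CPM in WT A, and the log2(fold change) was -2.02 ± 0.245 (SE, adjusted p = 0.0132, quasi-likelihood test of edgeR). All KO libraries were below all WT libraries, including those of WT B, at 6.12, 6.05 and 8.50 CPM. THRB lies at 24117153 to 24495756 of chromosome 3 on the minus strand. It was the 1 gene called of 36 tested, beside 1.34% of all 28816 genes, 0.729% as higher and 0.607% as lower, and without KO 1A its log2(fold change) was -1.97 with an adjusted p of 0.101. THRA, the other thyroid hormone receptor gene, was not called.

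At FDR < 0.1 alone, NR4A1 and PPARA were also called in HCT116 MSTRG.34636.7 KO. NR4A1 was at 23.3, 19.2 and 19 CPM in KO and 32.4, 41.8 and 45.0 CPM in WT A, a log2(fold change) of -0.96 ± 0.170 (SE, adjusted p = 0.0548, quasi-likelihood test of edgeR). PPARA, a fatty acid receptor, was at 68.9, 66.4 and 69.5 CPM in KO and 43.9, 40.3 and 38.0 CPM in WT A, a log2(fold change) of 0.74 ± 0.118 (SE, adjusted p = 0.0403, quasi-likelihood test of edgeR). Neither gene's KO and WT A libraries overlapped. NR4A1 passed the fold-change threshold without WT A 1A (-1.10), and NR2F1 was called without WT A 2A (1.18, each a log2(fold change)), where it was at 90.3 CPM against 42.3 and 29.3 CPM in the other two WT A libraries. With WT B as the control, where 14.5% of all genes were called, 5 genes were, NR1D1 (1.22), PPARA (1.19) and RXRB (1.08) as higher and NR2C1 (-1.70) and THRB (-1.66) as lower.

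Of the companion genes, 5 of 75 were called in HCT116 MSTRG.34636.7 KO, all higher and all of the clock list, of which 14 were tested. DBP, a clock output factor, was at 110 CPM ± 2.49 in KO and 38.0 CPM ± 6.38 in WT A (SD, n = 3). PER3 was at 30.7 CPM ± 0.362 against 12.4 CPM ± 1.09, and TEF at 59.9 CPM ± 1.40 against 28.6 CPM ± 4.73 (SD, n = 3). BHLHE41 (1.17) and PER1 (1.02, each a log2(fold change)), which is also in the glucocorticoid receptor target list, were the other two. The REV-ERB gene NR1D1 was at 120, 116 and 123 CPM in KO and 88.2, 77.5 and 51 CPM in WT A, which did not pass the test (log2(fold change) = 0.73, adjusted p = 0.13, quasi-likelihood test of edgeR).

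The wild-type groups of HCT116 differed by 1 nuclear receptor gene of 35 tested, beside 7.06% of all 27280 genes. NR2C1 (TR2), an orphan receptor, was at 11.4, 10.5 and 12.6 CPM in WT A and 35.5, 31.8 and 28.2 CPM in WT B, with a log2(fold change) of -1.47 ± 0.158 (SE, adjusted p = 0.000758, quasi-likelihood test of edgeR). In all 6 libraries numbered 1A to 3A, KO and WT, NR2C1 was between 9.38 and 12.6 CPM, and in the 18 others, of both cell lines, between 24.2 and 54.1 CPM. RXRB, an RXR gene, was between 43.9 and 63.3 CPM in the first set and between 5.63 and 49.4 CPM in the second. NR2C1 and RXRB calls that set a group of one numbering against a group of the other, as with the exchanged controls above, move with this numbering, and its part in them was not tested.

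**Figure D5:**
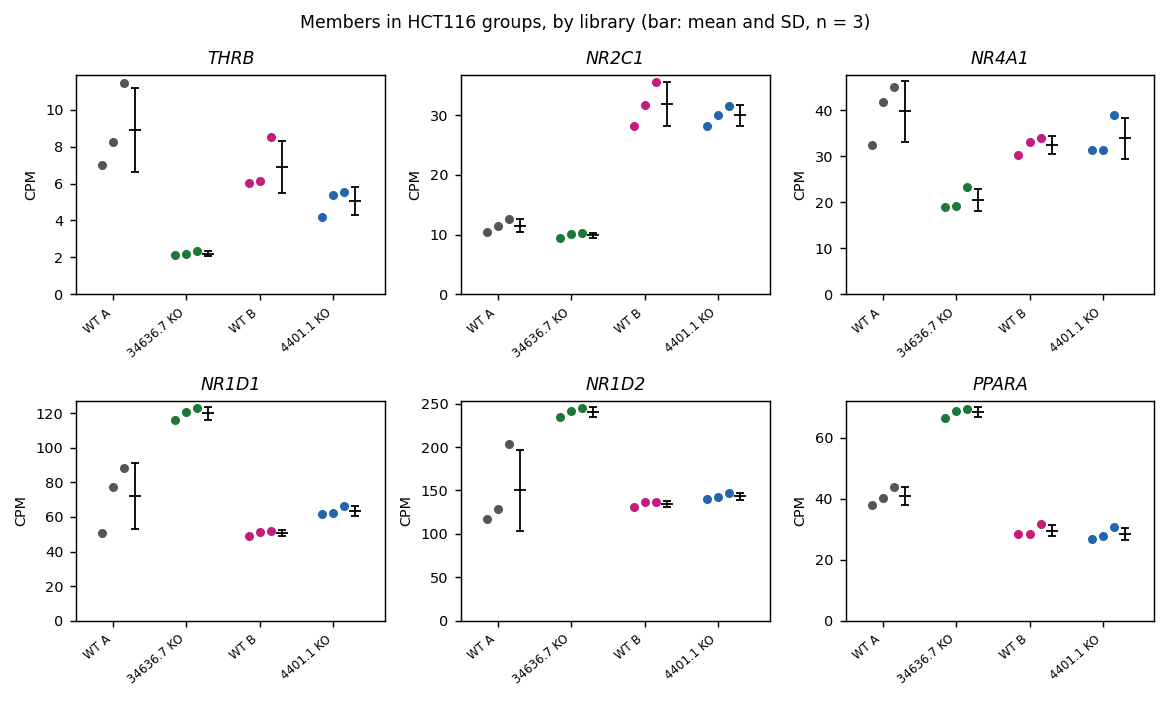
Level (CPM, axis from 0) of THRB, NR2C1, NR4A1, NR1D1, NR1D2 and PPARA in HCT116 WT A, MSTRG.34636.7 KO, WT B and MSTRG.4401.1 KO, 1 point per library with mean and SD (n = 3) beside the points. THRB is lowest in MSTRG.34636.7 KO, and NR2C1 is low in both groups numbered 1A to 3A.

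With the label HCT116 MSTRG.2513.6 KO kept for S8, S9 and S11, none of the 36 nuclear receptor genes tested was called by edgeR's quasi-likelihood test, beside 0.933% of all 26374 genes. An unadjusted p below 0.05 was reached by 11 of the 36 and by 5456 of the 26374. DESeq2 called 6 of the 36, with 10.6% of all genes called by it. The levels fell into separate values for S11 and for S8 and S9. NR0B1 was at 0 CPM in S11 and at 68.0 and 60.5 CPM in S8 and S9, RARB at 2.09, 28.4 and 28.2 CPM, and NR3C1 at 49.1, 244 and 260 CPM. VDR was in contrast at 22.7 CPM in S11 and at 3.43 and 3.60 CPM in S8 and S9. Without S11, 21 genes were called, 8 higher and 13 lower, beside 37.2% of all genes. Without S8 and S9, 0 were called, beside 8.69% of all genes, where S11 was assumed to vary like the WT B libraries.

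For genes that were called in A549 MSTRG.2513.6 KO or passed its FDR, S8 and S9 were also near the values of that group. NR5A2 was at 21.6 and 22.9 CPM in S8 and S9, where A549 MSTRG.2513.6 KO ranged over 16.5 to 24.4 CPM and A549 WT B over 41.9 to 52.3 CPM. NR2F1 was at 5.36 and 4.87 CPM, against 4.04 to 4.93 and 8.44 to 9.43 CPM. RXRA was at 135 and 133 CPM, against 133 to 173 and 92.9 to 101 CPM. NR0B1 was at 68.0 and 60.5 CPM, against 65.3 to 73.8 and 38.4 to 41.8 CPM, so S9 lay below the range of the A549 KO. PPARG was at 24.8 to 28.5 CPM over S8, S9 and also S11, against 24.1 to 29.1 and 38.2 to 42 CPM. For each of these genes S8 and S9 were thus outside the range of A549 WT B, on the side of the A549 KO.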

How the data were processed

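Counts per gene symbol were deposited by the authors for each of the 24 libraries. The kit was strand-specific with depletion of rRNA. Per the labels, reads were trimmed with Trim Galore 0.6.6, checked with FastQC 0.11.9 and aligned to hg38 with HISAT2 2.2.1. The strand setting of the counting is not given in the sources used here. Reads of genes that overlap on opposite strands, such as RXRB and SLC39A7, may thus not have been kept apart. The 60641 symbols present in every table were used, and 3 extra symbols of some tables were left out. Total counts ranged from 25799359 to 102261808.

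Each comparison was fitted on its own groups in edgeR 4.0.16 (R 4.3.3) with TMM normalization, filterByExpr and the quasi-likelihood test, and p-values were adjusted over all genes tested by Benjamini-Hochberg. Genes were called at FDR < 0.1 and |log2(fold change)| > 1, and the interaction at FDR < 0.1. The standard error is the log2(fold change) divided by the square root of F. CPM is the count over the library total. Folds against groups at 0 use a floor of 3 counts per library, which covers counting error only. The fits were tested on simulated data.

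The listed genes and the 9 companion lists (coregulators; glucocorticoid receptor, LXR, PPAR, xenobiotic and bile acid receptor and estrogen receptor targets; retinoid and vitamin D genes; clock genes) were chosen with earlier results of these data known. Values in every library are given for genes called in a KO comparison, and for the 5 highest and 5 lowest log2(fold change) called between the cell lines. RXRA, PPARG, NR2F2 and NR1D1 and the values of S8, S9 and S11 were added after their values were seen. DESeq2 1.42.0, upper-quartile normalization, other filters and thresholds, another WT control, leaving out libraries and a replicate block were tried as alternatives. Same-numbered libraries did not deviate together, so the numbers were not taken as pairs. Positions are from GENCODE (GRCh38) and promoter windows from RefSeq (GRCh38.p14). Protein sequences were not used here. Some genes of the companion lists are not reported here by name.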

Additional observations from a re-analysis of the deposited data

Results flagged for a closer look

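The effect of MSTRG.4401.1 KO differed between A549 and HCT116 for 11 nuclear receptor genes, by the interaction term of edgeR's quasi-likelihood test at FDR < 0.1 (A549 minus HCT116, log2 scale). These were 27.5% of the 40 tested, and 26.9% of all genes tested passed the same threshold. Among orphan receptors the difference was -1.90 for NR5A2, 1.53 for NR2F1, 1.45 for NR4A1 and 2.02 for NR4A2. It was 1.66 for ESRRB and 0.86 for PPARA. Among the vitamin D and thyroid hormone receptors it was -1.86 for VDR, 1.31 for THRB and -0.50 for THRA. It was -0.55 for NR1D2 and -0.32 for RXRA. The call of RXRA was kept under 5 of 18 alternatives, those of NR1D2 and THRA under 17 of 18, and those of the other 8 genes under all 18. Groups of 3 libraries are too small for the test of single outlying libraries.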

How the results depend on the processing

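Alternatives were followed for the nuclear receptor genes called in a KO comparison, and for the 5 highest and 5 lowest called between the cell lines. None of these changed direction. Of 284 values under an alternative, 266 kept their side of the threshold and 18 lost the call, those of NR2F1, ESR1, ESR2, THRB and NR5A1. Companion genes, and other nuclear receptor genes named above such as PPARG and RXRA, are not among the 284. Direction could not change where only the FDR or fold-change threshold was altered, since the fit was the same. Dropping the fold-change threshold could not lose a call, and a gene removed by a filter was not counted. Without the fold-change threshold, the A549 KOs had 5 (MSTRG.2513.6) and 21 (MSTRG.4401.1) genes called and differed from each other by 20, those of HCT116 had 10 (MSTRG.4401.1) and 3 (MSTRG.34636.7), and the HCT116 wild types differed by 6. The shares of all genes called at this setting were, in the same order, 5.97%, 43.7%, 37.3%, 16.3%, 2.15% and 12.3%. In A549 MSTRG.2513.6 KO, 1 gene (NR5A2) was called with DESeq2, with upper-quartile normalization and with no filter, against 2, and leaving out 1 library gave 1 to 2. Of all genes 3.91%, 2.91% and 1.59% were called, against 2.92%, and leaving out 1 library gave 1.69% to 2.95%. In HCT116 MSTRG.2513.6 KO, against 0, DESeq2 called 6, a minimum of 10 counts 1 and WT A as control 1, and leaving out 1 library gave 0 to 21, the highest without S11. The shares of all genes were 10.6%, 4.92% and 3.4%, against 0.933%, and 0% to 37.2% with 1 library left out. In HCT116 MSTRG.4401.1 KO, WT A as control gave 2, beside 10.2% of all genes. In HCT116 MSTRG.34636.7 KO, against 1, leaving out 1 library gave 0 to 2 (0 without KO 1A, 2 without WT A 1A or 2A) and WT B as control 5. Of all genes 0.278% were called without KO 1A, 1.34% without WT A 1A, 2.43% without WT A 2A and 14.5% with WT B. The interaction called 19 genes with upper-quartile normalization (15 more positive in A549) and 18 with a minimum of 10 counts, against 11, while the share of all genes called was 27.8% and 41.8%, against 26.9%. The cause of these differences was not tested. With the replicate number as a block, 1 gene was called in MSTRG.34636.7 KO, 1 between the wild types and 19 between the cell lines, where NR5A1 was not called. Of all genes 0.576%, 6.83% and 34.2% were called with this block. The correlation of same-numbered deviations ranged from -0.168 to 0.076, and that of differently numbered ones from -0.097 to 0.113. Genes under about 1 CPM, such as NR1H4 and NR5A1, rest on few counts.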
